A study of Mus musculus with 14 samples.

Results

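The splicing factors and neuronal RNA-binding proteins were followed as 79 genes of the 55401 genes in the count table. They were chosen by gene symbol alone: the SR proteins (Srsf), the SR repetitive matrix proteins (Srrm1 to Srrm4), the heterogeneous nuclear ribonucleoproteins (Hnrnp), the SF3A and SF3B subunits, and the Rbfox, Elavl, Celf, Nova, Mbnl, Khdrbs, Ptbp, Qk, Pum, Mex3 and Cpeb genes. The rule reads no expression value, although the families were proposed with earlier results of these data known. RNA was sequenced from 14 tubes of EGFP-labelled neurons of wild-type C57BL/6 mice, with 4 to 5 cells in each tube. The cells lay in PiC and carried EGFP from AAVretro-EGFP, a retrogradely travelling adeno-associated virus injected at 0.1 µl into MeA or PrL, so that each cell is known by the target its axon reaches. The groups were male PiC-MeA (n = 3), female PiC-MeA (n = 3), male PiC-PrL (n = 4) and female PiC-PrL (n = 4). All groups shared the strain, the wild-type genotype and the viral infection. The abbreviations PiC, MeA and PrL stand as in the labels, and no age or batch is given in the sources used here. Whether the tubes came from separate animals is not stated, so p-values measure only the spread between these samples, which may be technical.

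Splicing removes introns from nuclear transcripts. The SF3A and SF3B complexes sit in the U2 small nuclear ribonucleoprotein, which recognises the branch point of an intron. SR proteins mostly promote the use of nearby exons and hnRNPs often oppose it, while the Rbfox, Nova, Ptbp, Celf, Mbnl, Elavl, Khdrbs and Qk proteins set which alternative exons a neuron or glial cell uses. Pum, Mex3 and Cpeb proteins act mainly in the cytoplasm, where they control the stability or translation of messenger RNAs, in neurons also near synapses.

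The promoters of 4 hnRNP genes are shown because the levels of these genes are compared library by library below. Each window runs from 250 bases before the RefSeq transcript start to 50 bases after it, in RefSeq's GRCm38.p6 build. The Hnrnpk window is chr13:58402068-58402367 on the minus strand. The Hnrnpa1 window is chr15:103240147-103240446 on the plus strand. The Hnrnph2 window is chrX:134600929-134601228 on the plus strand. The Hnrnpa2b1 window, the first of 2 listed for that gene, is chr6:51469845-51470144 on the minus strand. Capitals mark the CCAAT box (CCAAT) and the GC box (GGGCGG) read on either strand.
Hnrnpk: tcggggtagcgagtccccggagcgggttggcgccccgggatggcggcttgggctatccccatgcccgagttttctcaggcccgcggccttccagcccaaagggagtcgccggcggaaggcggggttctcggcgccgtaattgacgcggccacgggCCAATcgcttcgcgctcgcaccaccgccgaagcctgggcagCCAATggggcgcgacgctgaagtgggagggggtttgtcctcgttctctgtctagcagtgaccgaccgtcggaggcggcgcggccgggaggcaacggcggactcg
Hnrnpa1: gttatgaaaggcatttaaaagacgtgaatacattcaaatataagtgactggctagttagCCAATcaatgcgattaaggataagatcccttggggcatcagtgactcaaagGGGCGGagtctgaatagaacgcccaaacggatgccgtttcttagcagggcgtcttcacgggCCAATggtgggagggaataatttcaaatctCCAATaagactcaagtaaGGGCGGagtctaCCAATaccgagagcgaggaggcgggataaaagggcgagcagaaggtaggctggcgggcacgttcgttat
Hnrnph2: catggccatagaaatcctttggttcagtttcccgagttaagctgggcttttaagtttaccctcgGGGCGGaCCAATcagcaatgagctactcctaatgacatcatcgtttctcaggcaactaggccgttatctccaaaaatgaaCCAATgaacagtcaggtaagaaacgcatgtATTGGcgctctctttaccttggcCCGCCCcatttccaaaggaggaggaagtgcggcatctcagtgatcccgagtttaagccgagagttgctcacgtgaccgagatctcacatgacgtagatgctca
Hnrnpa2b1: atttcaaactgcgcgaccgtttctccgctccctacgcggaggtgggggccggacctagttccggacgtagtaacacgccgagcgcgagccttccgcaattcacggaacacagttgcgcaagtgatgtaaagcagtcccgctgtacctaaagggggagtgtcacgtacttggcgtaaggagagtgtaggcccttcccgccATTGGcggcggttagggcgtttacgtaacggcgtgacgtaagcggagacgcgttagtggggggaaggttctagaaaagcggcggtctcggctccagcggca

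Hnrnpa1 held 4 CCAAT boxes and 2 GC boxes, Hnrnph2 held 3 CCAAT boxes and 2 GC boxes, Hnrnpk held 2 CCAAT boxes and Hnrnpa2b1 held 1. Of the 79 genes, 66 had at least 1 RefSeq promoter in the table, with 109 promoters in all. A CCAAT box was found in 46.8% of these promoters, against 37.4% of the 32851 promoters listed for all genes. A GC box was found in 64.2% of them, against 35.7% of all promoters. The TATA box (TATAAA) was at 10.1%, against 13.6% of all promoters. The cyclic AMP response element (TGACGTCA) lay in promoters of Celf3 and Celf6, which gave 3.67% of the member promoters, against 1.79% of all promoters. Neither the estrogen response element (GGTCANNNTGACC) nor the shared androgen and glucocorticoid response element (GAACANNNTGTTC) was matched in any member promoter. These were rare everywhere, at 0.07% and 0.0578% of all promoters. All motifs were searched on both strands, and a match or its absence describes only the letters in this window.

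Total counts ran from 6132985 to 15392217 per library, and the members took 0.899% to 1.28% of them. Between 58 and 73 members reached 10 counts in a given library. The 3 male PiC-MeA libraries stood apart: they listed 18964 to 20014 genes with a count, against 12479 to 14908 in the other 11 libraries. Counts in genes that span more than 100 kb made up 25.7% to 29.2% of their totals, against 15.4% to 24.1% in the others. The labelled cell type was checked against 11 pan-neuronal markers, whose summed level was 8600 to 21843 CPM in every library (counts scaled to a common library total), with Tubb3 and Nefl of that list at 0 throughout. The summed level of 8 excitatory markers was 849 to 2161 CPM, that of 14 inhibitory markers 44.8 to 5692 CPM, and that of 10 astrocyte markers 318 to 2046 CPM. The sum was 335 to 2333 CPM for 8 oligodendrocyte markers and 106 to 783 CPM for 9 microglia markers. The oligodendrocyte sum was above the excitatory one in replicate 3 of male and of female PiC-MeA. So it was in male PiC-PrL replicates 2 and 3 and in female PiC-PrL replicates 1 and 2. In such small pools of cells, fewer cells of a type and less RNA per cell cannot be told apart.

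**Figure D1:**
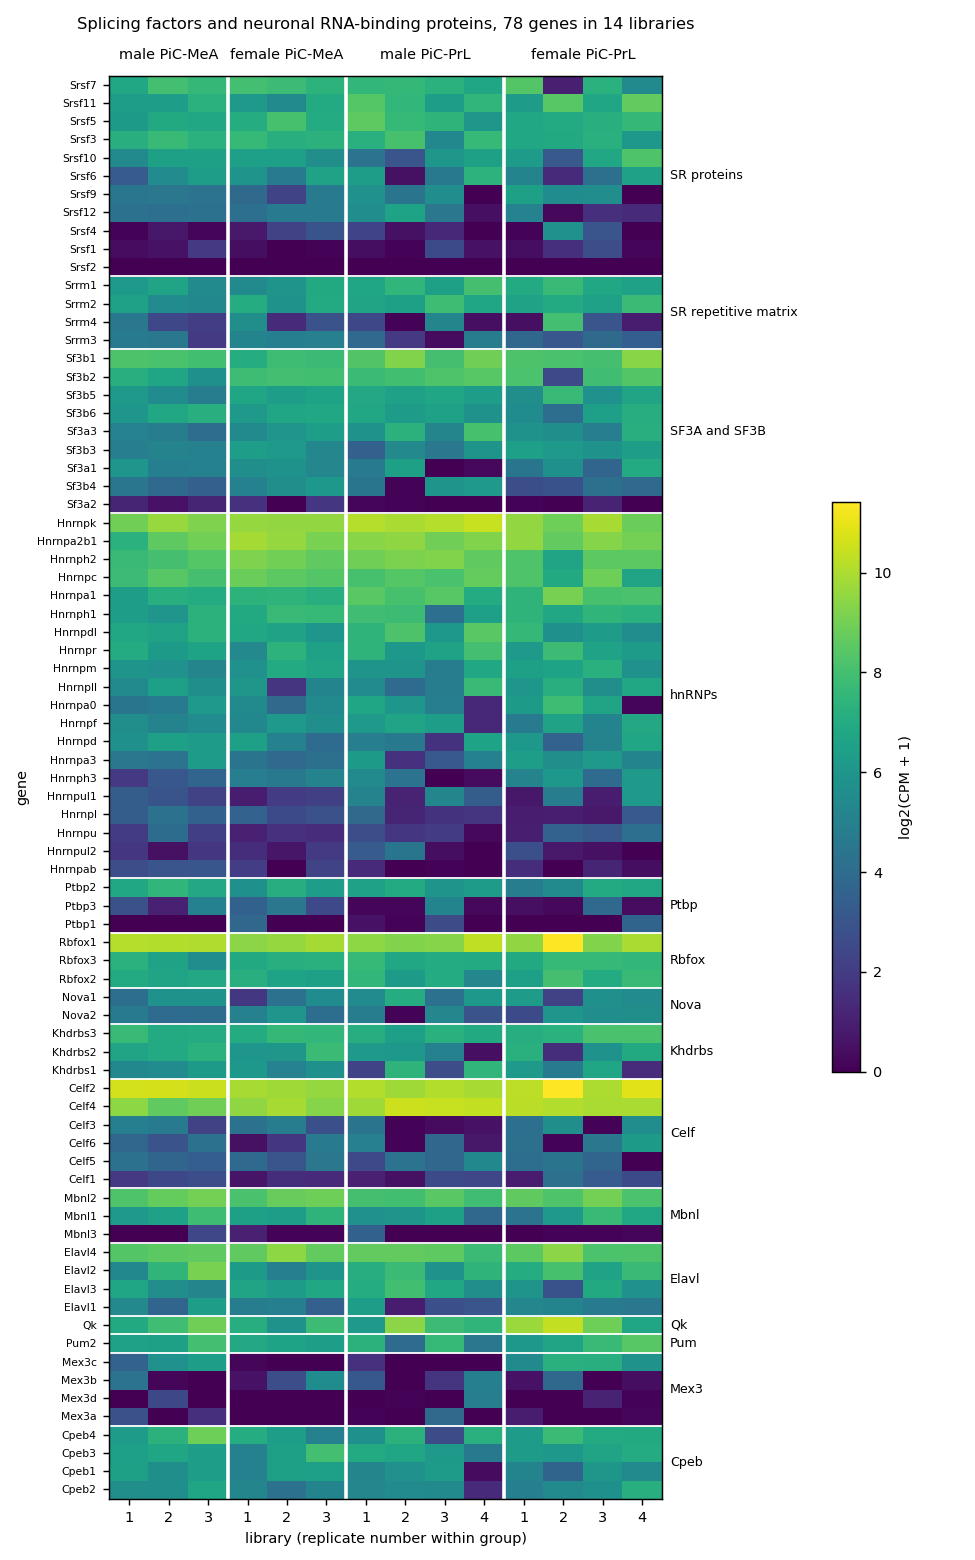
Level of 78 of the 79 genes (rows, grouped by family) in each of the 14 libraries (columns, grouped by sex and target), as log2(CPM + 1) on the colour scale. Rbfox1, Celf2, Celf4 and Hnrnpk form bright bands across all columns, and Srsf2 is dark in every library.

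Of the 79 members, 78 passed the filter on low counts and were tested. The exception was Srsf2, a classical SR protein, which was listed at 0 in all 14 libraries. By the gene annotation, 25.3% of its exon length is shared with genes on the opposite strand. The same is the case for 31.7% of Nova2, 29.1% of Hnrnpab, 26.5% of Hnrnpf, 20.7% of Ptbp1 and 16.1% of Sf3a2. Srsf4 shared 43.0% with Gm12992. No source used here says how the authors' counting treated such shared reads, so the levels of these genes are uncertain, as are those of hnRNP genes that have near-identical processed pseudogenes.

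Compared per kilobase of exon, a few members dominated. Rbfox1, which promotes or represses neuronal exons by its position beside them, averaged 225 ± 120 CPM per kb over the 14 libraries (SD). Hnrnpk, a poly(C)-binding hnRNP, followed at 126 ± 42.6 CPM per kb. Celf4, a neuronal member of the CELF family that also binds messenger RNAs in the cytoplasm, averaged 110 ± 38.2 CPM per kb. Hnrnph2, an X-linked binder of G-rich sequence, came next at 90.0 ± 33.9 CPM per kb, and Hnrnpa2b1, known for the transport of messenger RNAs into dendrites, at 88.0 ± 29.8 CPM per kb. Elavl4, a neuronal Hu protein that binds AU-rich elements, reached 74.5 ± 25.1 CPM per kb, Hnrnpa1 72.5 ± 39.1 CPM per kb and Hnrnpc 71.2 ± 25.5 CPM per kb. Each mean in this order lay within 1 SD of the one before it. The other 15 hnRNPs averaged between 0.461 (Hnrnpu, a nuclear scaffold protein) and 28.2 CPM per kb (Hnrnpdl).

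The general splicing factors lay below these. Among the SR proteins, Srsf7 averaged 47.5 ± 24.1, Srsf5 39.8 ± 21.0, Srsf11 19.3 ± 13.9 and Srsf3 19.2 ± 7.35 CPM per kb over the 14 libraries. The 6 other SR proteins with counts averaged at most 17.6 CPM per kb (Srsf9), with Srsf1 the lowest. The branch point subunit Sf3b1 averaged 28.8 ± 13.4 CPM per kb, close to its partner Sf3b6 at 30.7 ± 12.6 CPM per kb. Sf3b5 averaged 22.9 ± 11.7 CPM per kb, and Sf3b2 ran from 4.70 to 351 CPM over the libraries. The other 5 SF3 subunits averaged between 0.247 (Sf3a2) and 27.2 CPM per kb (Sf3a3). The scaffold-like matrix proteins Srrm1 and Srrm2 stood at 15.9 ± 8.82 and 8.58 ± 4.35 CPM per kb. Srrm4, which promotes microexons in neurons, averaged 3.22 ± 7.69 CPM per kb, an SD larger than the mean. Per kilobase it was below Srrm1 in 14 of 14 libraries, although both stood at 29.3 CPM per kb in female PiC-PrL replicate 2. Without division by exon length Srrm4 was the higher in that library, at 254 CPM, against 214 CPM for Srrm1. Srrm3 averaged 2.57 ± 1.76 CPM per kb.

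Within the Rbfox, Ptbp, Elavl and Mbnl families 1 paralog stood above the others per kilobase in every library. In the Celf, Khdrbs and Nova families none did so in every library. Rbfox1 exceeded Rbfox2 and Rbfox3 in 14 of 14 libraries on the per-kilobase scale. Rbfox3, whose protein is the NeuN antigen used to stain neurons, averaged 24.3 ± 7.66 CPM per kb and Rbfox2 15.6 ± 7.17 CPM per kb. Per kilobase, Rbfox3 exceeded Rbfox2 in 13 of 14 libraries, the exception being male PiC-MeA replicate 3. This order rests in part on the division by exon length, 5818 bp for Rbfox3 and 8140 bp for Rbfox2. Without it the means were close, at 141 CPM for Rbfox3 and 127 CPM for Rbfox2. Rbfox2 was then the higher in male PiC-MeA replicates 2 and 3 and female PiC-MeA replicate 1. So it was in male PiC-PrL replicate 3 and female PiC-PrL replicates 2 and 4. Ptbp2, the neuronal form of the polypyrimidine tract-binding proteins, averaged 10.4 ± 4.58 CPM per kb. Ptbp1, which is replaced by Ptbp2 as neurons form, averaged 0.458 ± 0.950 CPM per kb and reached 10 counts in only 3 libraries. Its level is among those left uncertain by shared exons. Ptbp3 averaged 1.19 ± 1.60 CPM per kb, and Ptbp2 exceeded both paralogs in 14 of 14 libraries.

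Per kilobase, Elavl4 was above Elavl1, Elavl2 and Elavl3 in 14 of 14 libraries. Without division by exon length Elavl2 was above it in male PiC-MeA replicate 3, at 544 CPM, against 389 CPM for Elavl4. Elavl2 and Elavl3, at 19.0 ± 16.0 and 13.0 ± 8.37 CPM per kb, had no fixed order, with Elavl2 the higher in 6 of 14. Elavl1, the Hu protein found in most cell types, averaged 2.87 ± 2.44 CPM per kb. Per kilobase, Celf4 exceeded Celf2 (50.2 ± 20.3 CPM per kb) in 13 of 14 libraries, the exception being male PiC-MeA replicate 2. Both exceeded Celf1 (0.507 ± 0.533 CPM per kb) in all 14. The order of Celf4 and Celf2 rests on the division by exon length, 8583 bp for Celf4 and 25884 bp for Celf2. Without it the means were the other way round, at 944 CPM for Celf4 and 1299 CPM for Celf2. Celf3, Celf5 and Celf6 averaged 3.17 ± 3.07, 2.22 ± 1.41 and 4.36 ± 5.28 CPM per kb.

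Mbnl2, the brain-enriched muscleblind protein, averaged 30.0 ± 8.10 CPM per kb and exceeded Mbnl1 (5.18 ± 3.45) and the X-linked Mbnl3 (0.134 ± 0.335) in 14 of 14 libraries. Khdrbs3, a STAR-family regulator of neurexin splicing, averaged 45.1 ± 15.7 CPM per kb, above Khdrbs2 (8.46 ± 5.95) in 14 and above Khdrbs1 (9.67 ± 8.79) in 13 of 14 libraries. Without division by exon length Khdrbs2 was above Khdrbs3 in replicate 3 of male and of female PiC-MeA and in female PiC-PrL replicate 1. Khdrbs1 was then above Khdrbs3 in male PiC-PrL replicates 2 and 4. Nova1 and Nova2, KH-domain proteins of neuronal splicing, were close at 5.15 ± 3.86 and 3.40 ± 2.44 CPM per kb, with Nova1 the higher in 8 of 14. Qk, known from the splicing and myelin of oligodendrocytes, averaged 25.7 ± 25.1 CPM per kb.

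Of the cytoplasmic regulators, Cpeb4 and Cpeb3, which bind cytoplasmic polyadenylation elements, averaged 20.9 ± 17.9 and 12.9 ± 7.26 CPM per kb. The Pumilio repressor Pum2 averaged 18.1 ± 12.6 CPM per kb. Mex3c, a KH-domain protein with a ubiquitin ligase domain, averaged 10.3 ± 14.2 CPM per kb. Mex3b averaged 2.68 ± 4.16 CPM per kb and reached 10 counts in 7 libraries. The least abundant of these were Mex3a at 0.288 ± 0.691 and Mex3d at 0.750 ± 2.33 CPM per kb, while Cpeb1 and Cpeb2 averaged 12.7 ± 6.88 and 6.25 ± 4.46 CPM per kb.

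**Figure D2:**
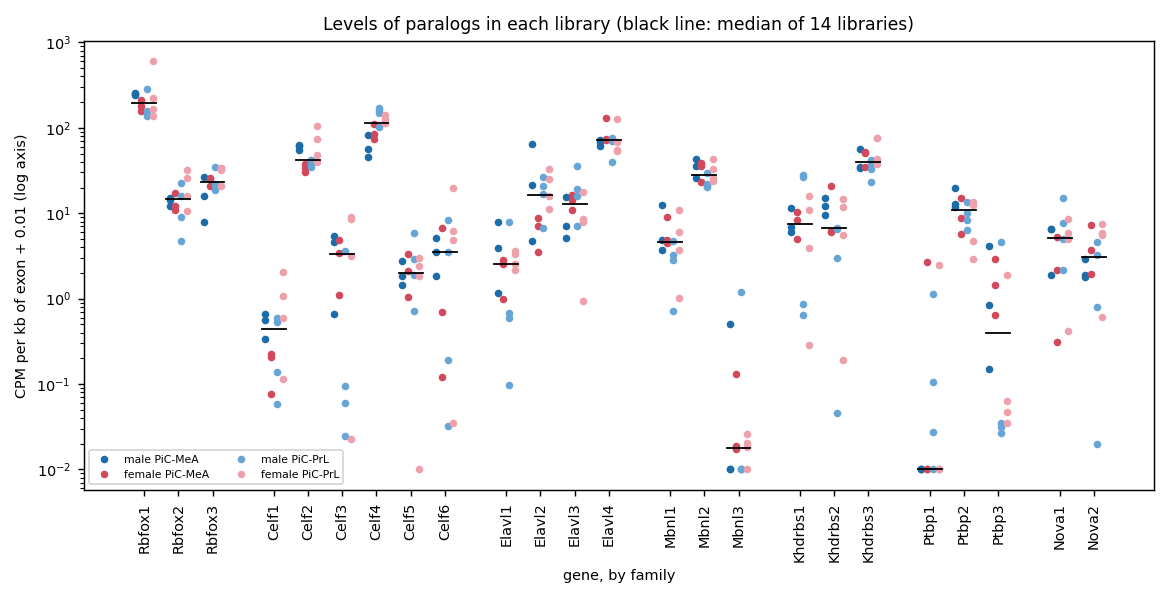
Level of each paralog of 7 neuronal families in each library, as CPM per kb of exon plus 0.01 on a log axis. Points are libraries coloured by group, and the black line is the median of 14. Rbfox1, Celf4, Elavl4, Mbnl2, Khdrbs3 and Ptbp2 have the highest median of their families.

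How far the tubes of a group differed from each other varied widely between members. The spread within groups, as the pooled SD of log2(CPM + 1), had a median of 1.13 over the 78 members, against 1.44 over all 14599 genes tested. The members and all genes were not matched for level, on which this measure depends. It was smallest for Celf4 (0.30), Hnrnpk (0.34), Mbnl2 (0.35), Celf2 (0.37), Khdrbs3 (0.43) and Elavl4 (0.46). It was largest for Srrm4 (2.55), Hnrnpa0 (2.37) and Srsf9 (2.26). Srrm4 shows what such a spread looks like: it had 254 CPM in female PiC-PrL replicate 2, against 0.402, 7.06 and 0.842 CPM in the other 3 female PiC-PrL libraries. Srsf9 ran from 19.1 to 21.7 CPM in male PiC-MeA and from 0 to 54.2 CPM in male PiC-PrL.

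The series names transcription factor networks and sex hormones in sexually dimorphic gene expression as its subject, so sex was compared first. The comparisons that use the 3 male PiC-MeA libraries cannot be made without them. In PiC-MeA neurons the fitted male minus female difference was positive for 42 members and negative for 36, with a median of 0.02 on the log2 scale, against 0.12 over all genes tested. None of the 78 passed at an adjusted p of 0.05 (edgeR quasi-likelihood test with Benjamini-Hochberg adjustment over all genes). The share of all genes that passed was 0%. Without adjustment 5 members (6.41%) were under a p of 0.05, against 12.4% of all genes. DESeq2's Wald test called 2 members, where it called 5.68% of all genes, and limma voom with quality weights called 4, where it called 12.1%. The groups did not overlap for 20 members, 9 higher and 11 lower in males, where 26.2% of all genes did not overlap (17.5% higher and 8.76% lower).

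Of the SF3 genes, 5 were lower in every male than in every female PiC-MeA library, namely Sf3a3, Sf3b2, Sf3b3, Sf3b4 and Sf3b5, where 8.76% of all genes were lower in this way. These 5 genes span 3841 bp (Sf3b5) to 36549 bp (Sf3b3). With all genes in bins of span, the median difference lay between -0.61 and 0.11 at log10 spans of 3.623 to 4.559. Sf3b2 was at 140, 108 and 52.0 CPM in the male libraries, against 233, 258 and 248 CPM in the female ones. Its difference was -1.30 ± 0.82 (log2 ± SE, edgeR adjusted p = 0.655). Sf3b1 lay on the other side, at 299, 279 and 244 CPM in males, against 134, 233 and 219 CPM in females (0.49 ± 0.44, edgeR adjusted p = 0.914). In all, 2 of the 9 SF3 differences were positive and 7 negative, with a median of -1.01 and none passing.

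Hnrnpa2b1 was at 154, 383 and 509 CPM in male PiC-MeA libraries, against 935, 780 and 552 CPM in female PiC-MeA libraries. Every male value lay below every female one, with a difference of -1.12 ± 0.40 and an edgeR adjusted p of 0.298. Hnrnph2 likewise was at 212, 265 and 332 CPM in males, against 584, 508 and 397 CPM in females (-0.88 ± 0.43, edgeR adjusted p = 0.418). Elavl2, a neuronal Hu protein, was at 39.5, 176 and 544 CPM in males, against 73.0, 29.4 and 59.2 CPM in females. Its groups overlapped, since the lowest male library lay among the females, and the difference of 2.23 ± 0.78 (edgeR adjusted p = 0.298) was 0.93 with 1 library left out, namely male PiC-MeA replicate 3.

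Celf2, a binder of GU-rich sequence with a role in neuronal splicing, was at 1581, 1640 and 1437 CPM in male PiC-MeA libraries, against 969, 879 and 782 CPM in female PiC-MeA libraries. The groups were far apart relative to their spread, with a mean of 1553 ± 105 CPM over males, against 877 ± 93.8 CPM over females (SD, n = 3 each), yet the difference of 0.82 ± 0.31 had an edgeR adjusted p of 0.317 over all genes. Rbfox1 was at 1126, 1093 and 1054 CPM in males, against 688, 783 and 923 CPM in females, again without overlap (0.45 ± 0.45, edgeR adjusted p = 0.964). Both genes span very long stretches, Celf2 969870 bp and Rbfox1 1526172 bp.

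The male PiC-MeA libraries also differed from the female ones in other measures. Over all genes, 80.5% of genes over 100 kb had a positive male minus female difference in PiC-MeA, against 47.6% of shorter ones. Among the members, 11 of the 17 over 100 kb were positive, against 31 of the 61 shorter ones. With each library's trend over gene span removed, the Celf2 difference was 0.07, that of Hnrnpa2b1 -0.26, that of Hnrnph2 0.04 and that of Elavl2 1.05. The Celf4 difference of -0.54 ± 0.30 (edgeR adjusted p = 0.524) was larger in size at -1.47 with the trend removed, and -0.91 without male PiC-MeA replicate 1. The astrocyte markers summed to 1103 to 1377 CPM in male PiC-MeA, against 318 to 420 CPM in female PiC-MeA with Gjb6 and Aqp4 at 0. The endothelial and mural markers summed to 28.4 to 121 CPM in males, against 0.529 to 2.51 CPM in females with Vtn, Cldn5 and Pdgfrb at 0. The part of these markers in the result was not tested.

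**Figure D3:**
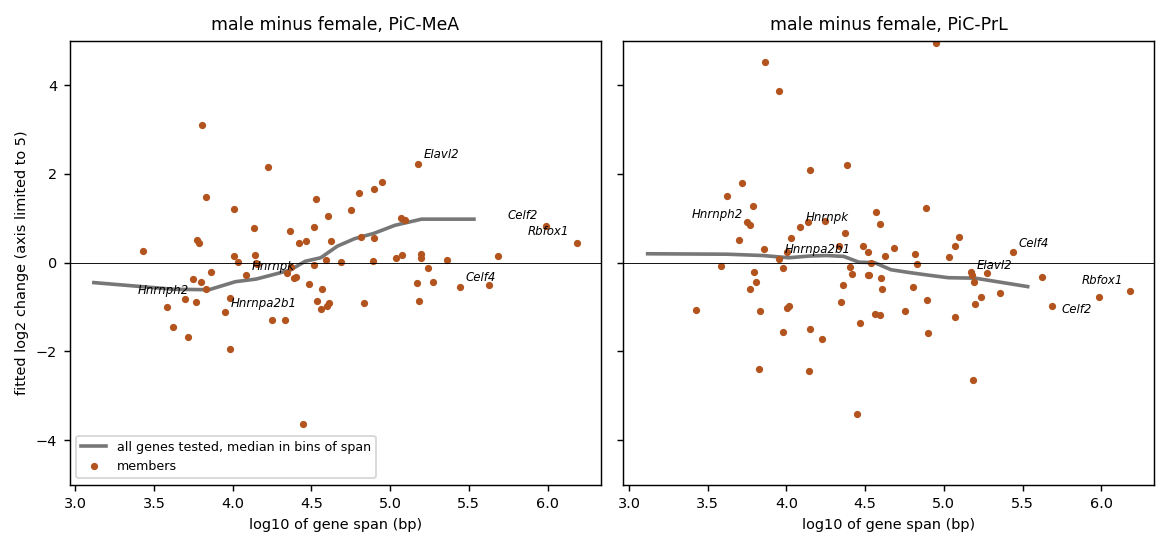
Fitted male minus female log2 change of each member (points) against log10 of its gene span, in PiC-MeA (left) and PiC-PrL (right), with the median of all genes tested in 15 bins of span (grey line). The grey line climbs with span in PiC-MeA and declines slightly in PiC-PrL, and the longest members, Rbfox1 and Celf2, are positive at left and negative at right. Beyond the axis limit of 5 lie Mex3c in both panels and Mex3a, Mex3d and Ptbp1 in PiC-MeA.

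In PiC-PrL neurons 32 members had a positive and 46 a negative male minus female difference, with a median of -0.22, against -0.02 over all genes. None passed, and the share of all genes that passed was 0%. Unadjusted p values under 0.05 were found for 5 members (6.41%), against 14.3% of all genes. DESeq2 and limma voom each called 1, Mex3c, where they called 7.59% and 0.0548% of all genes. The groups did not overlap for 3 members, Hnrnpk and Hnrnph2 higher and Mex3c lower in males, where 3.51% of all genes did not overlap (1.49% higher and 2.02% lower).

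Hnrnpk was at 1122, 1007, 1133 and 1384 CPM in male PiC-PrL libraries, against 752, 474, 956 and 464 CPM in female PiC-PrL libraries. The lowest male value was above the highest female one, and the difference was 0.81 ± 0.28 (edgeR adjusted p = 0.283). Hnrnph2 was at 481, 570, 615 and 394 CPM in males, against 311, 100, 368 and 369 CPM in females (0.84 ± 0.37, edgeR adjusted p = 0.307). Hnrnpdl, an hnRNP D-like protein, was at 170, 298, 66.7 and 359 CPM in males, against 194, 52.2, 77.3 and 47.9 CPM in females. Its groups overlapped (1.27 ± 0.58, edgeR adjusted p = 0.327), and the difference was 1.95 without female PiC-PrL replicate 1.

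On the lower side, Celf2 was at 1084, 891, 1093 and 969 CPM in male PiC-PrL libraries, against 1233, 2713, 1017 and 1904 CPM in female PiC-PrL libraries. The females spread widely and 1 of them lay among the males, with a difference of -0.77 ± 0.27 (edgeR adjusted p = 0.283). Without female PiC-PrL replicate 2 the difference was -0.45, and with the span trend removed it was -0.14. Khdrbs3 was at 138, 85.7, 152 and 120 CPM in males, against 137, 157, 279 and 276 CPM in females (-0.77 ± 0.42, edgeR adjusted p = 0.421). Rbfox1 had 1259 CPM in male replicate 4 and 2655 CPM in female replicate 2, each well above the rest of its group (-0.64 ± 0.39, edgeR adjusted p = 0.512). The inhibitory markers summed to 138 to 552 CPM in males, against 365 to 5692 CPM in females, and their part in the result was not tested.

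Averaged over both targets, the male minus female difference was positive for 40 and negative for 38 members, with a median of 0.03, against 0.04 over all genes. None of the members passed, where 0.0137% of all genes did. Unadjusted, 2 members (2.56%) had a p under 0.05, against 10.7% of all genes. DESeq2 called 1, Mex3a, where it called 4.62% of all genes, and limma voom called 0, where it called 0.0274%. No member kept all male libraries apart from all female ones, as 0.123% of all genes did. The smallest unadjusted p values among members read at 10 or more counts throughout the higher sex belonged to Elavl2 (0.98 ± 0.50, edgeR adjusted p = 0.505), Hnrnpa2b1 (-0.51 ± 0.26, edgeR adjusted p = 0.507) and Hnrnpdl (0.85 ± 0.44, edgeR adjusted p = 0.514). Sf3b3 was at -1.10 ± 0.60, Hnrnpm at -0.75 ± 0.49 and Hnrnpk at 0.27 ± 0.21. Leaving out male PiC-MeA replicate 3 gave 0.33 for Elavl2, and leaving out male PiC-MeA replicate 2 gave 0.11 for Hnrnpk. With the span trend removed Elavl2 was at 0.57, Hnrnpa2b1 at -0.17 and Hnrnpk at 0.50. Of all genes over 100 kb 61.6% had a positive averaged sex difference, against 49.7% of shorter ones.

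Hnrnph2 and Mex3c had sex differences of opposite direction in the 2 targets with no overlap in either, as 0.890% of all genes did. For Hnrnph2 the sex difference in PiC-MeA minus that in PiC-PrL was -1.72 ± 0.56, with an edgeR adjusted p of 0.159, and it was -0.61 with the span trend removed. Mex3c had 142, 669 and 551 counts in male PiC-MeA, against 2, 0 and 0 in female PiC-MeA, and 32, 0, 0 and 0 counts in male PiC-PrL, against 538, 1620, 2013 and 822 in female PiC-PrL. The gene was thus read from 142 or more counts in every library of 2 groups and from 32 or fewer in the other 2. The difference between its sex differences had an edgeR unadjusted p of 4.93e-05 and an edgeR adjusted p of 0.152. Its fitted fold is not read as a size, since it rests on counts of 0.

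Of all 78 members none passed in this test of the difference between sex differences, and 0% of all genes did. DESeq2 and limma voom called 3 each, where they called 8.94% and 4.99% of all genes. There were 6 members (7.69%) with an unadjusted p under 0.05, against 15.6% of all genes. Celf2 had a difference of 1.59 ± 0.42 (edgeR adjusted p = 0.152), which was 0.21 with the span trend removed. Elavl2 was at 2.50 ± 1.00, Hnrnpa2b1 at -1.20 ± 0.52 and Hnrnpk at -1.09 ± 0.42, with edgeR adjusted p values of 0.231, 0.272 and 0.215. With that trend removed Elavl2 was at 0.95, Hnrnpa2b1 at -0.18 and Hnrnpk at -0.33, and Elavl2 was at 1.21 without male PiC-MeA replicate 3. By family, 6 Celf genes had a median of 1.72, 20 hnRNPs a median of -0.27 and 9 SF3 genes a median of -0.08, where all genes had 0.31.

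**Figure D4:**
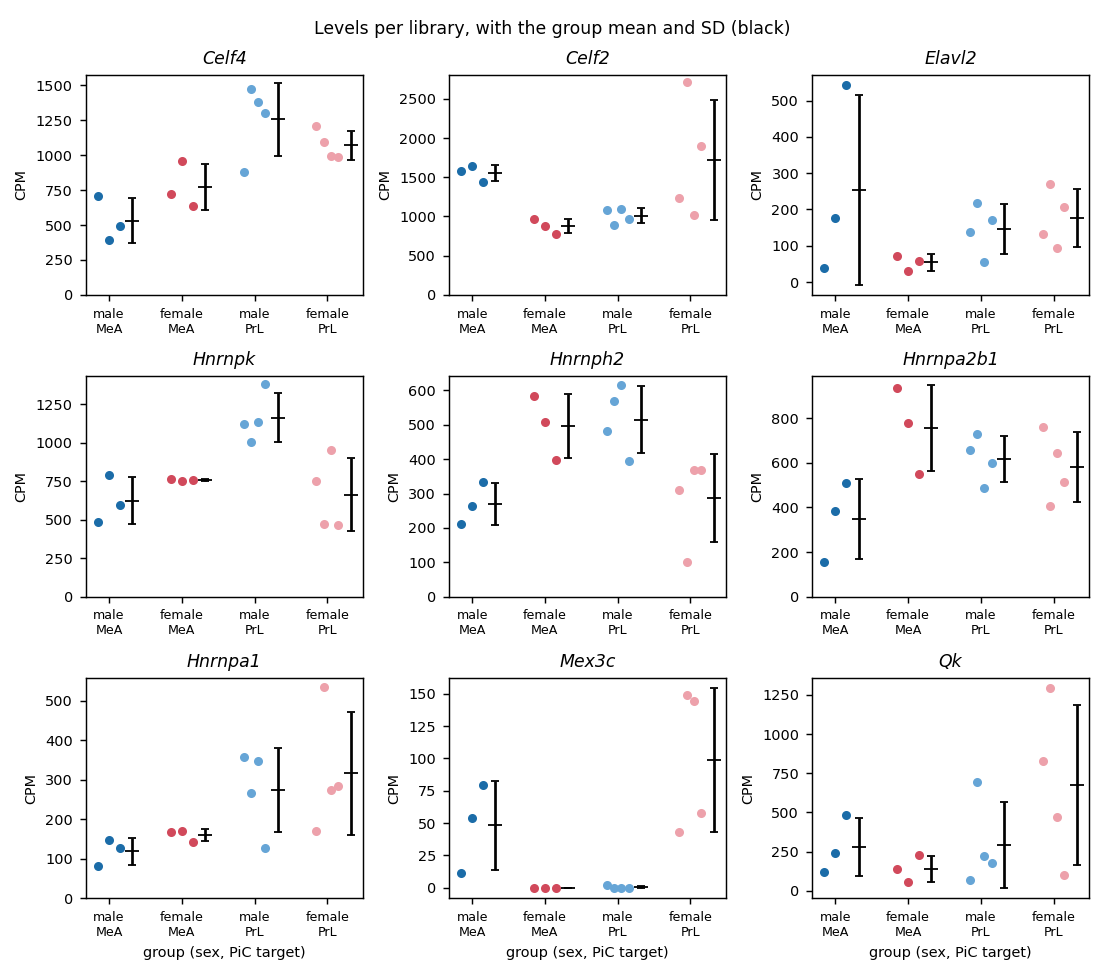
CPM of 9 members in every library (points), with the mean and SD of each group in black, for male and female PiC-MeA and male and female PiC-PrL. Celf4 has lower means in both PiC-MeA groups than in the PiC-PrL groups, Celf2 and Hnrnph2 cross between the sexes from 1 target to the other, and Mex3c is near 0 in female PiC-MeA and male PiC-PrL.

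The 2 targets were then compared within each sex, in fits that share libraries with the sex comparisons. In males, 34 members had a positive and 44 a negative PiC-MeA minus PiC-PrL difference, with a median of -0.31, against 0.16 over all genes. None passed, where 0.603% of all genes did. The unadjusted p was under 0.05 for 8 members (10.3%), against 22.2% of all genes. DESeq2 called 3 members, where it called 14.8% of all genes, and limma voom called 6, where it called 17.9%. The groups did not overlap for 12 members, 6 in each direction, where 25.4% of all genes did not overlap (19.2% higher and 6.23% lower in PiC-MeA). Of all genes over 100 kb 77.5% were positive in this comparison, against 48.0% of shorter ones, and so were 11 of the 17 long and 23 of the 61 shorter members. The pan-neuronal markers summed to 8600 to 10271 CPM in male PiC-MeA, against 13665 to 21843 CPM in male PiC-PrL, and their part in the result was not tested.

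Celf4 stood closest to the threshold. It was at 708, 394 and 491 CPM in male PiC-MeA libraries, against 881, 1470, 1383 and 1299 CPM in male PiC-PrL libraries. All PiC-MeA values lay below all PiC-PrL values, with a difference of -1.24 ± 0.29 and an edgeR adjusted p of 0.0597. With the span trend removed the difference was -2.10 (edgeR adjusted p = 0.00824). In females it was at 720, 955 and 639 CPM in PiC-MeA, against 1206, 1097, 991 and 985 CPM in PiC-PrL. These groups did not overlap either, and the difference was -0.47 ± 0.28 (edgeR adjusted p = 0.597).

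Averaged over the sexes, the Celf4 difference was -0.86 ± 0.20, with an edgeR adjusted p of 0.0523, the lowest of all members in any comparison. Over the alternatives tried that adjusted p ran from 0.00320 to 1.00. Celf4 passed with DESeq2, limma voom, no filter on low counts or the span trend removed (-1.11, edgeR adjusted p = 0.0428). It also passed with male PiC-MeA replicate 1 or male PiC-PrL replicate 1 left out. When the fit included each library's count of detected genes the difference was 0.74, with the opposite sign. That count was 18964 or more in every male PiC-MeA library and 14908 or fewer in every other library. The fit can therefore hardly separate the count from this group, and no conclusion is drawn from the sign.

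Hnrnpk was at 485, 789 and 596 CPM in male PiC-MeA libraries, against the 1007 to 1384 CPM of male PiC-PrL libraries (-0.90 ± 0.30, edgeR adjusted p = 0.0939). In females its difference was 0.20 ± 0.30, with 753 to 766 CPM in PiC-MeA, against 464 to 956 CPM in PiC-PrL. Sf3a3, a subunit of the SF3A complex, was at 31.8, 27.8 and 15.7 CPM in male PiC-MeA, against 54.8, 160, 36.6 and 274 CPM in male PiC-PrL (-2.38 ± 0.86, edgeR adjusted p = 0.105). Hnrnph2 also did not overlap, with 212 to 332 CPM in male PiC-MeA, against 394 to 615 CPM in male PiC-PrL (-0.93 ± 0.41, edgeR adjusted p = 0.176). Celf2 was on the other side at 1437 to 1640 CPM in male PiC-MeA, against 891 to 1093 CPM in male PiC-PrL (0.62 ± 0.29, edgeR adjusted p = 0.215). This difference was 0.01 with the span trend removed and 0.34 without female PiC-MeA replicate 3, while that of Hnrnpk was -0.40 with the trend removed. Hnrnpab had 5.53 to 7.36 CPM in male PiC-MeA, against 0 to 1.54 CPM in male PiC-PrL (edgeR adjusted p = 0.324).

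In females, 32 members had a positive and 46 a negative PiC-MeA minus PiC-PrL difference, with a median of -0.22, against -0.06 over all genes. None passed, and 0% of all genes did. An unadjusted p under 0.05 was found for 7 members (8.97%), against 11.1% of all genes. DESeq2 called 2 members, where it called 4.59% of all genes, and limma voom called 1, where it called 0.212%. The groups did not overlap for 11 members, 3 higher and 8 lower in PiC-MeA, where 8.43% of all genes did not overlap (4.47% higher and 3.97% lower). Among those lower were Celf2, Celf4, Elavl2, Hnrnpa1, Hnrnpa3, Mex3c and Sf3b1, and those higher were Hnrnph2, Sf3b4 and Srrm3.

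Celf2 was at 782 to 969 CPM in female PiC-MeA, against 1017 to 2713 CPM in female PiC-PrL (-0.97 ± 0.30, edgeR adjusted p = 0.403). With the span trend removed its difference was -0.21. Qk was at 137, 56.4 and 225 CPM in female PiC-MeA, against 831, 1293, 470 and 102 CPM in female PiC-PrL. Of the PiC-PrL females, replicate 4 alone lay within the PiC-MeA values, and the difference was -2.27 ± 0.82 (edgeR adjusted p = 0.403). The oligodendrocyte markers, in whose cells Qk is abundant, summed to 452, 930 and 2333 CPM in female PiC-MeA, against 2101, 1400, 789 and 335 CPM in female PiC-PrL. Replicate 4 held both the lowest Qk value and the lowest oligodendrocyte sum of the PiC-PrL females. In female PiC-MeA the lowest Qk value was in replicate 2, which had the middle sum. The groups did not overlap in 3 other marker lists. The astrocyte markers summed to 318 to 420 CPM in female PiC-MeA, against 697 to 1192 CPM in female PiC-PrL. The inhibitory markers summed to 44.8 to 243 CPM in female PiC-MeA, against 365 to 5692 CPM in female PiC-PrL, and the pan-neuronal markers to 9222 to 12272 CPM in PiC-MeA, against 12303 to 17635 CPM in PiC-PrL. The part of these markers in the female differences was not tested. Sf3b4, which binds upstream of the branch point, was at 31.0, 48.3 and 65.7 CPM in female PiC-MeA, against 5.63, 6.26, 17.5 and 13.8 CPM in female PiC-PrL (2.16 ± 1.40, edgeR adjusted p = 0.659). Hnrnpc was at 330 to 460 CPM in female PiC-MeA, against 101 to 474 CPM in female PiC-PrL (0.62 ± 0.46, edgeR adjusted p = 0.741). It was between 0.36 and 1.02 with 1 library left out, the moves coming from female PiC-PrL replicates 2, 3 and 4.

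Averaged over the sexes, 26 members had a positive and 52 a negative PiC-MeA minus PiC-PrL difference, with a median of -0.22, against 0.07 over all genes. None passed, where 0.822% of all genes did. Of all genes over 100 kb 65.7% were positive here, against 49.4% of shorter ones, and so were 6 of the 17 long and 20 of the 61 shorter members. Before adjustment 7 members (8.97%) had a p under 0.05, against 17.4% of all genes. DESeq2 called 3, where it called 10.9% of all genes, and limma voom called 1, where it called 8.75%. Among 20 hnRNPs 4 differences were positive and 16 negative, with a median of -0.43. No member kept all PiC-MeA libraries apart from all PiC-PrL libraries, as 0.959% of all genes did. Hnrnpa1, whose promoter held the most CCAAT boxes of the 4 shown, was at 81.5, 147 and 128 CPM in male PiC-MeA and 167, 170 and 143 CPM in female PiC-MeA, against 358, 267, 346 and 128 CPM in male PiC-PrL and 171, 534, 275 and 283 CPM in female PiC-PrL. Male PiC-PrL replicate 4 was the single PiC-PrL library within the PiC-MeA range. Its averaged difference was -1.10 ± 0.33, with an edgeR adjusted p of 0.0727.

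Srsf11, an SR-related protein, was at 84.1, 84.2 and 154 CPM in male PiC-MeA and 68.2, 43.6 and 124 CPM in female PiC-MeA, against 336, 187, 84.2 and 180 CPM in male PiC-PrL and 74.9, 350, 108 and 404 CPM in female PiC-PrL. The groups overlapped, with an averaged difference of -1.22 ± 0.46 (edgeR adjusted p = 0.152). On the positive side were Mbnl1 at 0.73 ± 0.55, Mbnl2 at 0.32 ± 0.24 and Khdrbs2 at 1.03 ± 0.81, with edgeR adjusted p values of 0.594, 0.604 and 0.630. Without female PiC-MeA replicate 3 they were at 0.38, 0.07 and 0.43, and without male PiC-MeA replicate 3 Mbnl1 was at 0.34 and Mbnl2 at 0.19. With the span trend removed Mbnl1 was at 0.27, Mbnl2 at -0.09 and Khdrbs2 at 0.68. Of these, Mbnl2 had 309 to 517 CPM in male PiC-MeA and 277 to 466 CPM in female PiC-MeA, against 240 to 355 CPM in male PiC-PrL and 287 to 514 CPM in female PiC-PrL.

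**Figure D5:**
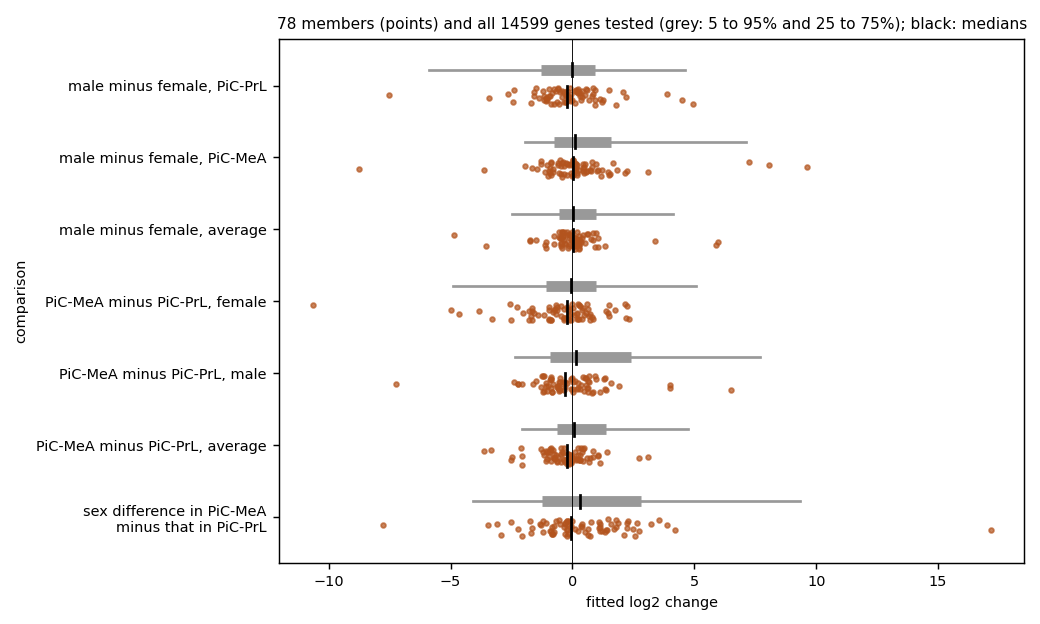
Fitted log2 change of the 78 tested members (points) in each of the 7 comparisons, above which grey bars give the 5 to 95% and 25 to 75% ranges of all 14599 genes tested and black ticks the medians. The member medians lie between -0.31 and 0.03, and the most distant points are genes with counts of 0 in a group, such as Mex3c at a fitted 17.15.

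Other genes of RNA processing were counted in the same fit. Of 71 tested core spliceosome genes outside the member list, 18 had a positive and 53 a negative male minus female difference in PiC-MeA, with a median of -0.57. In PiC-PrL 43 were positive and 28 negative, with a median of 0.35. Their PiC-MeA minus PiC-PrL difference was positive for 19 and negative for 52 in males (median -0.74), and positive for 32 and negative for 39 in females (median -0.04). Over all genes the share of positive differences was 53.6% for sex in PiC-MeA, 48.7% for sex in PiC-PrL, 53.4% for the target in males and 47.5% for the target in females. Gene span was not taken into account for this list. The bins of the shortest genes, at median log10 spans of 3.118 to 4.149, had sex differences with medians of -0.61 to -0.37 in PiC-MeA. In PiC-PrL the medians of these bins were 0.11 to 0.20. None of these 71 genes passed in any comparison by edgeR's quasi-likelihood test, where 0% to 0.822% of all genes did. An unadjusted p under 0.05 was found for 1 to 5 of them in each, against 10.7% to 22.2% of all genes.

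Of 40 other splicing regulators, 15 were positive and 25 negative for sex in PiC-MeA and 24 positive and 16 negative for sex in PiC-PrL. The 1 call among them was Rbm15, an RNA-binding protein of the m6A methylation complex, in the comparison of targets averaged over the sexes, where 0.822% of all genes passed. It was at 5.05, 21.5 and 15.7 CPM in male PiC-MeA and 40.3, 22.8 and 32.3 CPM in female PiC-MeA, against 62.0 to 259 CPM in male PiC-PrL and 60.4 to 153 CPM in female PiC-PrL. No PiC-MeA library reached the lowest PiC-PrL one, and the gene fell by 2.52 ± 0.55 on the log2 scale (edgeR adjusted p = 0.0435). Of all genes, 0.959% kept the targets apart in either direction. Rbm15 was not followed through the alternatives that were tried for the members. Of 35 other neuronal RNA-binding genes, 23 were positive and 12 negative for sex in PiC-MeA, with a median of 0.38, and 13 positive and 22 negative in PiC-PrL, with a median of -0.24. None of these neuronal genes passed in any comparison by edgeR's quasi-likelihood test, with 0 to 3 at an unadjusted p under 0.05 in each.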

How the data were processed

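The authors deposited raw counts per gene for 14 libraries of polyadenylated RNA, made with a SMART-Seq2 kit per the labels' protocols. Per the submitters' processing notes, the build was mm10 and the tools were featureCounts 2.0.1, HISAT2 2.2.1, SAMtools and Trimmomatic 0.39. No source used here gives the annotation release, the strand setting or the treatment of shared reads. Of 55401 gene identifiers, 54349 matched GENCODE M21 with their version and 55141 without it. Spans, exon lengths and positions come from that release.

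The members and lists were chosen with earlier results of these data known. Genes were filtered with edgeR's filterByExpr (minimum count 10, minimum total 15), which left 14599, and scaled with TMM factors (trimmed mean of M-values). All 14 libraries entered 1 robust quasi-likelihood fit (R 4.3.3, edgeR 4.0.16) with a mean for each group, from which 7 contrasts that share libraries were taken. Adjusted p-values are Benjamini-Hochberg values over all genes tested. The scripts were tested on simulated data, with changes placed only in genes of higher mean CPM and with the spread of each gene capped. This checked the code and does not measure the power in these data. CPM values use TMM library sizes, and CPM per kb divides them by the union exon length. Sex differences are male minus female and target differences PiC-MeA minus PiC-PrL.

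Named with values were all tested genes of the Rbfox, Elavl, Nova, Celf, Ptbp, Khdrbs, Mbnl and Qk families, the 4 most abundant Srsf, Hnrnp and Sf3 genes, the 2 most abundant Srrm, Pum, Mex3 and Cpeb genes, any member that passed, and for each contrast and direction the 3 lowest-p members that reached 10 counts throughout the higher group. 1 member is not reported here by name. Other members and marker genes were named after their values were seen. Alternatives were DESeq2 1.42.0 size factors and its Wald test, limma 3.58.1 voom with quality weights, no filter, a filter of 10 counts in 7 libraries, a covariate for detected genes, subtracting the trend over gene span within each library, a replicate block, and leaving libraries out. Precision is limited by totals of 6132985 to 15392217 counts and by 3 or 4 tubes per group.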

Additional observations from a re-analysis of the deposited data

Results flagged for a closer look

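Dixon's test was applied in the groups of 4 libraries to each member that the naming rule above picked. Members named outside that rule, such as Srrm4, Mex3a and Mex3d, were not tested in this way. Chance alone flags about 1 in 20 groups where values are normally distributed. CPM values with libraries at or near 0, as in Mex3c and Mbnl3, are not, so the flags cannot be set against that rate. In male PiC-PrL, replicate 1 was far above the other libraries in Celf3 at 19.9 CPM, Elavl1 at 81.4 CPM, Hnrnpab at 1.54 CPM, Mbnl3 at 10.5 CPM and Mex3c at 2.05 CPM. Replicate 3 of that group was far above the others in Ptbp1 at 5.35 CPM, Ptbp3 at 34.3 CPM and Srrm2 at 232 CPM. Replicate 4 was far above them in Rbfox1 at 1259 CPM and far below them in Elavl4 at 216 CPM. In female PiC-PrL, Mex3b reached 13.2 CPM in replicate 2, Ptbp3 13.9 CPM in replicate 3, and Ptbp1 11.6 CPM and Sf3b1 672 CPM in replicate 4.

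For Hnrnph2 and Mex3c every male library lay on 1 side of the female libraries in PiC-MeA and on the other side in PiC-PrL. The difference between the sex differences was tested and did not pass. It was -1.72 on the log2 scale for Hnrnph2 (edgeR adjusted p = 0.159) and -0.61 with the trend over gene span removed. For Mex3c the fitted value of 17.15 depends on the prior count of the fit, because libraries stood at 0 counts, and is no bound (edgeR adjusted p = 0.152).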

How the results depend on the processing

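Against 0 members passing in each of the 7 comparisons, DESeq2's Wald test called 1 for sex in PiC-PrL (Mex3c), 2 for sex in PiC-MeA (Mex3a, Mex3c), 1 for sex averaged (Mex3a), 2 for the target in females (Mex3a, Mex3c), 3 in males (Mex3c, Sf3a3, Celf4), 3 averaged (Mex3a, Hnrnpa1, Celf4) and 3 for the difference between sex differences (Celf2, Mex3a, Mex3c). In the same order limma voom called 1 (Mex3c), 4 (Celf2, Mex3c, Hnrnpa2b1, Hnrnph2), 0, 1 (Mex3c), 6 (Hnrnpab, Mex3c, Hnrnpk, Hnrnpa1, Celf4, Hnrnph2), 1 (Celf4) and 3 (Celf2, Mex3c, Hnrnph2). No filter gave 1 (Mex3c), 1 (Mex3c), 0, 2 (Qk, Mex3c), 2 (Mex3c, Celf4), 1 (Celf4) and 1 (Mex3c). With the span trend removed Celf4 was called for the target in males and averaged and Mex3c for the difference, 1 each. DESeq2 passed 4.59% to 14.8% of all genes and limma voom 0.0274% to 17.9%. DESeq2 size factors and the stricter filter gave 0 throughout. So did the covariate for detected genes, which can hardly be separated from the male PiC-MeA group. Leaving out 1 library gave 0 to 2 calls for the target in males (Celf4 without female PiC-MeA replicate 3 or male PiC-MeA replicate 1, Celf4 and Mex3c without male PiC-PrL replicate 1), 0 to 1 averaged (Celf4 without male PiC-MeA replicate 1 or male PiC-PrL replicate 1), 0 to 1 for the difference (Mex3c without male PiC-PrL replicate 1) and 0 otherwise. Without the 3 male PiC-MeA libraries sex in PiC-PrL and the target in females again gave 0. The cause of these changes was not tested.

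Signs reversed with detected genes as a covariate for Celf4 (0.74 averaged target, 1.84 target in males, 1.87 sex in PiC-MeA), Hnrnpab (-22.35) and Sf3a3 (0.41) for the target in males, Mex3c (-10.30 target in males, -4.83 sex in PiC-MeA), Khdrbs2 (-4.16), Mbnl1 (-1.02) and Mbnl2 (-0.34) for the averaged target, and Hnrnpk (-0.16) and Sf3b3 (0.18) for sex averaged. All these comparisons use the male PiC-MeA libraries, which the count of detected genes sets apart from all others. The covariate can hardly be separated from that group there, so no conclusion is drawn from these reversals. With the span trend removed signs reversed for Hnrnph2 (0.04, sex in PiC-MeA) and Mbnl2 (-0.09, averaged target). Of the remaining values of single genes 1088 kept direction and side of the threshold and 42 newly passed. Replicate numbers do not pair the tubes by the labels, and the replicate block gave 0 calls in each comparison. After the group means were subtracted from log CPM, the residuals of same-numbered libraries of different groups correlated at -0.0388 to 0.0407 over 19 pairs. Fits shifted the median of all genes by up to 1.46 (limma voom) and 1.27 (no filter), and DESeq2 size factors by at most 0.05.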
